A study of Mus musculus with 4 samples.

Results

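A set of 10 genes whose transcription follows neuronal activity was examined in the mouse olfactory bulb at postnatal day 11. It held the early genes Arc, Npas4 and Ier2, and the later synaptic or secreted effectors Homer1, Nptx2, Ptgs2, Pcsk1, Vgf, Scg2 and Nrn1. They were picked by symbol, with earlier results of these data known, and all 10 were found among the 20032 genes of the expression table. Total RNA of whole bulbs was sequenced from 2 control libraries, littermates without Cre, and from 2 libraries of double conditional knockouts, called DCKO. The DCKO mice carried the Dlx5/6-CIE transgene, which expresses Cre from a Dlx5/6 enhancer active in GABAergic precursors, and were Sp8 Flox/Flox and Sp9 Flox/Flox. The 2 genes encode zinc finger transcription factors that act in the interneuron lineage. Both genotypes had a mixed background of C57BL/6J, 129S6 and CD1. Which floxed alleles the controls carried was not given in the sources used here. Bulb neurons outside the Cre lineage, such as mitral and tufted cells, kept the floxed genes intact, and the whole-bulb RNA mixes them with the recombined cells.

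Activity-regulated genes are switched on when synaptic input or depolarization raises calcium in a neuron. Kinases and phosphatases then act on transcription factors already present, such as CREB, SRF and MEF2, and a first wave of transcripts appears within minutes. Some of these encode transcription factors, among them Npas4, and others act directly at synapses, as Arc does. A later wave encodes synaptic scaffolds, secreted proteins and neuropeptide precursors. In the bulb, odour input to the glomeruli drives such transcripts in several neuron classes, and they are widely used as a readout of odour-driven activity.

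The early genes fell in the DCKO bulbs, while the later effectors went different ways. Arc, Npas4, Ier2 and Homer1 fell, and Scg2 and Nrn1 rose. Nptx2, Pcsk1 and Vgf did not pass the test. Ptgs2 was 16.2-fold lower in mean level but lay under the filter on low values. The test was limma on log2(FPKM + 1), where FPKM is the number of fragments scaled by transcript length and by the mapped fragments of the library. It covered the 13434 genes whose mean over the 4 libraries reached 1 FPKM, with p-values adjusted over all of them by the Benjamini-Hochberg method and a threshold of 0.05. Of the 9 members tested, 4 fell, beside 14.3% of all tested genes, and 2 rose, beside 13.0%. The members were chosen with earlier results of these data known, so their counts and median are no independent support. Centring each library on its median turned the split of all genes from 1926 lower and 1747 higher to 1580 lower and 2225 higher. The groups did not overlap for 8 of these 9, beside 71.5% of all tested genes. The median log2 change was -0.34 over the tested members and -0.02 over all tested genes. A member that passes the filter only through its control level has to differ, so these counts describe the members tested and do not stand for Ptgs2. Whole-bulb RNA cannot tell fewer cells of a type from less RNA per cell.

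**Figure D1:**
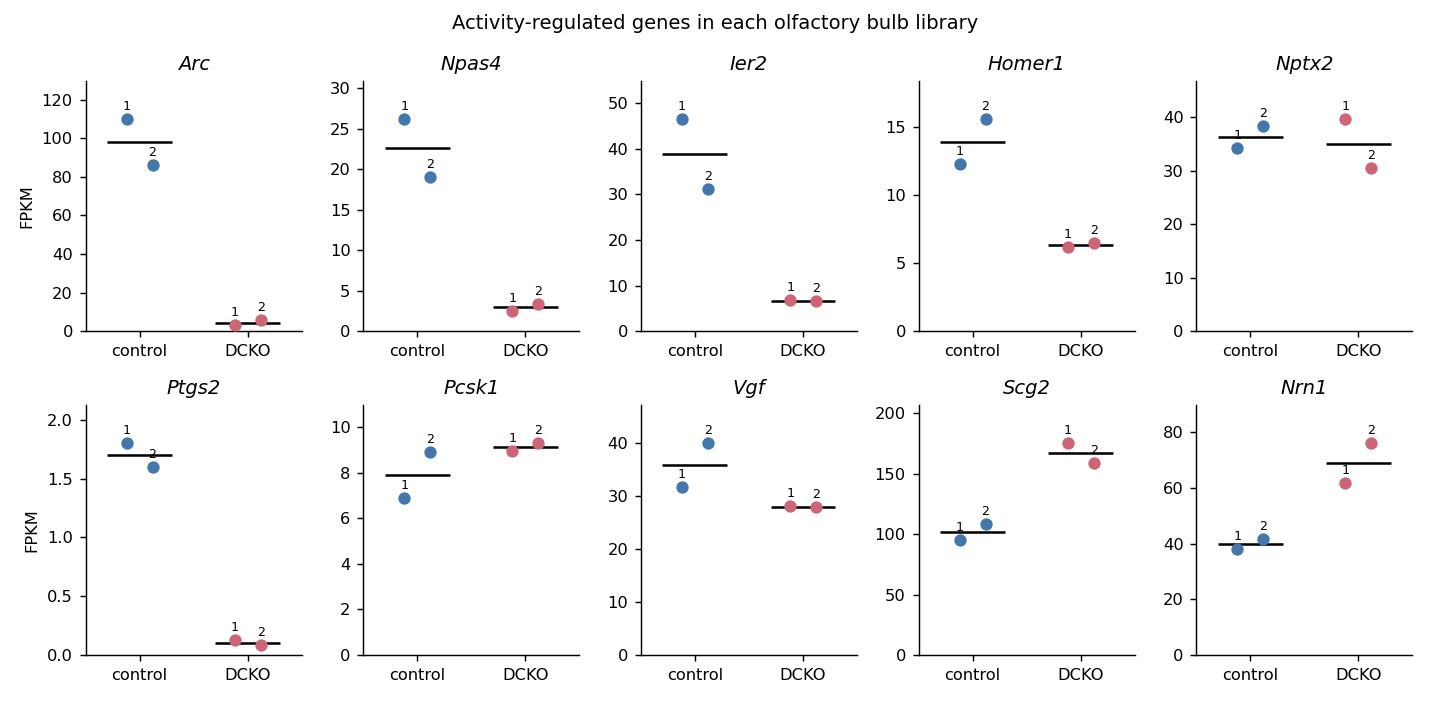
FPKM of each gene (vertical axes from 0, a scale per panel) in control libraries 1 and 2 (blue) and DCKO libraries 1 and 2 (red), with the mean of each genotype as a bar. Arc, Npas4, Ier2, Homer1 and Ptgs2 are lower in both DCKO libraries than in both controls, Scg2 and Nrn1 are higher in both, and the groups overlap for Nptx2.

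As a check of the labels, Sp8 had 1.68 and 2.03 FPKM in DCKO against 32.0 and 26.7 in the controls, and Sp9 had 0.0674 and 0.236 against 24.0 and 30.7. The fragments recovered per library numbered between 14911123 and 16116688. DCKO library 1 stood apart by sex: its Xist level was 77.0 FPKM and Ddx3y was listed at 0, while the other 3 libraries had Xist between 0.0252 and 0.0355 FPKM and Ddx3y between 12.1 and 14.2. Control library 1 stood apart by olfactory sensory neuron markers, whose 6 genes summed to 196 FPKM there and to between 49.1 and 63.6 in the other 3 libraries. Markers of the olfactory bulb were present in all 4 libraries, with Tbx21, a mitral and tufted cell factor, between 27.4 and 92.5 FPKM. Nothing in the labels says that the replicates are separate animals. The DCKO libraries, which differ in sex, cannot be repeats of 1 animal, while the spread between the controls may be technical.

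Promoter sequence was compared for the members with an entry in the RefSeq table (GRCm38.p6). The short element shown was picked because members that fell, rose and did not pass held it. Its presence in them is therefore a description and no test. Arc, Ier2, Nptx2, Vgf and Nrn1 had no entry and were not searched. The table gives 250 bases before to 50 after each start, and 5 of the 10 members matched, with 6 starts: Npas4, Homer1 (listed with 2 starts), Ptgs2, Pcsk1 and Scg2. The half-site of the cAMP response element, TGACG, which CREB binds, was searched on both strands. The full element TGACGTCA holds the half-site on both strands and counts as 2 matches. The stretches that hold the matches follow, 5′ to 3′ on the strand of the gene, with half-sites in capitals.
Npas4, fell, chr19:4990121-4990165, - strand: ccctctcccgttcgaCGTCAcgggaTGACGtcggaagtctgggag
Homer1, fell, chr13:93303686-93303756, + strand: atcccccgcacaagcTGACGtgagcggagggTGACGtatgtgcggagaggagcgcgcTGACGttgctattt
Ptgs2, lower and under the filter, chr1:150100032-150100061, + strand: gagtcaccactaCGTCAcgtggagtccgct
Pcsk1, did not pass, chr13:75089764-75089826, + strand: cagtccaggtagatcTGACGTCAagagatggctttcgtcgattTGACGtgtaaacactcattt
Scg2, rose, chr1:79440072-79440109, - strand: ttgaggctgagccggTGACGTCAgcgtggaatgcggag

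All 5 matched genes held the half-site at a start, and 1 of the starts of Homer1 held none. Of 32851 promoter windows of the same length in the table, 20.8% held it and 5.01% held 2 or more matches. Npas4 held 2 matches, Homer1 3, Ptgs2 1, Pcsk1 3 and Scg2 2. The full element stood in the windows of Pcsk1 and Scg2, beside 1.79% of all windows, and neither of these genes fell. The match nearest a start in Homer1 began 14 bases before it, that in Ptgs2 began at base 14 after it, and those in Npas4 began 179 and 169 bases before it. These distances are from the RefSeq starts, which differ from the GENCODE M21 starts for some genes. The stretches printed for Npas4, Homer1 and Scg2 lie inside the GENCODE gene spans given below, so they are not upstream of every annotated start. The CArG box, the core of the serum response element, was found in none of the 6 windows and in 1.63% of all windows. These are matches of letters in short windows, and they show neither binding nor the lack of it.

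Arc encodes a postsynaptic protein that drives removal of AMPA receptors and forms capsid-like particles. The gene lies on chromosome 15 from 74669083 to 74672570 on the - strand (GRCm38, GENCODE M21). The controls held 109.9 and 86.2 FPKM of Arc, and the DCKO libraries 2.96 and 5.65. Both DCKO libraries were far below both controls, and within DCKO library 2 had the higher level. The control mean was 98.0 ± 16.8 FPKM and the DCKO mean 4.31 ± 1.90 (SD, n = 2 per group), a 22.8-fold lower mean. On the log2(FPKM + 1) scale Arc fell by 4.26 (limma, SE 0.27, 95% confidence interval of the change -4.96 to -3.56, adjusted p = 0.00185), the fifth lowest of the 13434 tested genes. By mean level, Arc ranked 559 among the 20032 genes in the controls and 10045 in DCKO.

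Npas4 is a bHLH-PAS transcription factor induced by calcium influx in neurons, known for controlling inhibitory synapses (chromosome 19, 4984355 to 4990316, - strand). Control levels were 26.1 and 19.0 FPKM and DCKO levels 2.55 and 3.36, with no overlap. The mean was 7.64-fold lower in DCKO (log2 change -2.57, SE 0.18, 95% confidence interval -3.04 to -2.09, limma adjusted p = 0.00245). Ier2 is a short, intron-poor immediate early gene induced in many cell types, not only in neurons (chromosome 8, 84661331 to 84662852, - strand). Its control libraries had 46.5 and 31.1 FPKM, and its DCKO libraries 6.86 and 6.59. The DCKO libraries were close to each other and the controls lay further apart, at a ratio of 1.50. The mean was 5.77-fold lower (log2 change -2.34, SE 0.19, limma adjusted p = 0.00324). The 3 early genes together summed to 183 and 136 FPKM in control libraries 1 and 2 and to 12.4 and 15.6 in the DCKO libraries.

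Homer1 encodes a scaffold that links group I metabotropic glutamate receptors to other postsynaptic proteins, and neuronal activity is known to induce its short form. It lies on chromosome 13 from 93299635 to 93405129 on the + strand. Homer1 reached 12.2 and 15.5 FPKM in the controls, against 6.17 and 6.50 in the DCKO bulbs. The DCKO values were nearly equal and both were below the controls. Its promoter window held the half-site 3 times. The mean level was 2.19-fold lower (log2 change -1.01, SE 0.13, 95% confidence interval -1.34 to -0.69, limma adjusted p = 0.00856). GENCODE M21 holds 11 protein-coding Homer1 transcripts with last bases between 93360462 and 93405129, and the single value per gene does not separate the short from the long forms.

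Ptgs2 encodes the inducible cyclooxygenase, which forms the precursor of prostaglandins (chromosome 1, 150100031 to 150108227, + strand). It was the member with the lowest level, with control levels of 1.80 and 1.60 FPKM and DCKO levels of 0.125 and 0.0845. Its mean over the 4 libraries, 0.902 FPKM, lay under the filter. These values rested on 178 fragments (exact Poisson 95% interval 152.8 to 206) and 175 fragments (150.03 to 203) in the controls, and on 13 (6.92 to 22.2) and 9 (4.12 to 17.1) in DCKO. The intervals cover counting error only, and those of the DCKO libraries lay far below those of the controls. In a fit with no filter the log2 change was -1.29 (SE 0.06, limma adjusted p = 0.0241), on a scale that understates the change of so low a gene. This call did not hold when control replicate 1 (adjusted p = 0.167), DCKO replicate 1 (0.123) or DCKO replicate 2 (0.107) was left out. With the replicate number as a block it was lost as well (adjusted p = 0.138).

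Nptx2, Pcsk1 and Vgf did not pass the test. Nptx2, the neuronal pentraxin that gathers AMPA receptors at synapses on interneurons (chromosome 5, 144545902 to 144557478, + strand), had 34.2 and 38.4 FPKM in control libraries against 39.7 and 30.5 in DCKO libraries. The DCKO values lay on either side of both controls. Its log2 difference was -0.06, with a 95% confidence interval of -0.43 to 0.31 (limma adjusted p = 0.776). Pcsk1, the prohormone convertase that cleaves neuropeptide precursors in dense-core vesicles (chromosome 13, 75089826 to 75134861, + strand), had control levels of 6.88 and 8.90 FPKM and DCKO levels of 8.96 and 9.31. The second control was close to the lower DCKO library, and the log2 difference was 0.20 (95% confidence interval -0.13 to 0.53, limma adjusted p = 0.291).

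Vgf encodes a secreted peptide precursor induced by neurotrophins and activity (chromosome 5, 137026392 to 137033351, + strand). The controls held 31.7 and 40.0 FPKM of Vgf, and the DCKO libraries 28.2 and 27.8. Both DCKO values were below both controls, but the log2 difference of -0.34 (SE 0.12, 95% confidence interval -0.65 to -0.02) had a limma adjusted p of 0.0992. Without control replicate 1, the library with high sensory neuron markers, the difference was -0.50 and passed (adjusted p = 0.0345), and without control replicate 2 it was -0.17 (adjusted p = 0.386). The call on Vgf thus turned on which control was kept.

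Scg2 and Nrn1 rose. Scg2, secretogranin II, is a granin of dense-core vesicles and the precursor of secretoneurin (chromosome 1, 79434669 to 79440120, - strand). Control libraries held 95.2 and 108 FPKM of Scg2 and DCKO libraries 176 and 159, with the groups well apart, and its promoter window was among those with the full element. The mean was 1.64-fold higher (log2 change 0.71, SE 0.10, 95% confidence interval 0.46 to 0.96, limma adjusted p = 0.0103). Nrn1, neuritin, is a small membrane-anchored protein that promotes neurite growth and synapse stability (chromosome 13, 36725361 to 36735131, - strand). Control levels of Nrn1 were 38.1 and 41.6 FPKM and DCKO levels 61.7 and 76.2, so that its mean was 1.73-fold higher (log2 change 0.77, SE 0.12, 95% confidence interval 0.46 to 1.08, limma adjusted p = 0.014). Both DCKO libraries exceeded both controls. Exons of Nrn1 overlap those of Fars2 on the opposite strand, and reads of both cannot be told apart where the strand setting is not given. Fars2 itself had 6.73 and 5.73 FPKM in control bulbs and 8.18 and 6.35 in mutant bulbs (log2 difference 0.19, limma adjusted p = 0.361). With no filter on low values, the calls on Scg2 (adjusted p = 0.0505) and Nrn1 (adjusted p = 0.0636) were lost.

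**Figure D2:**
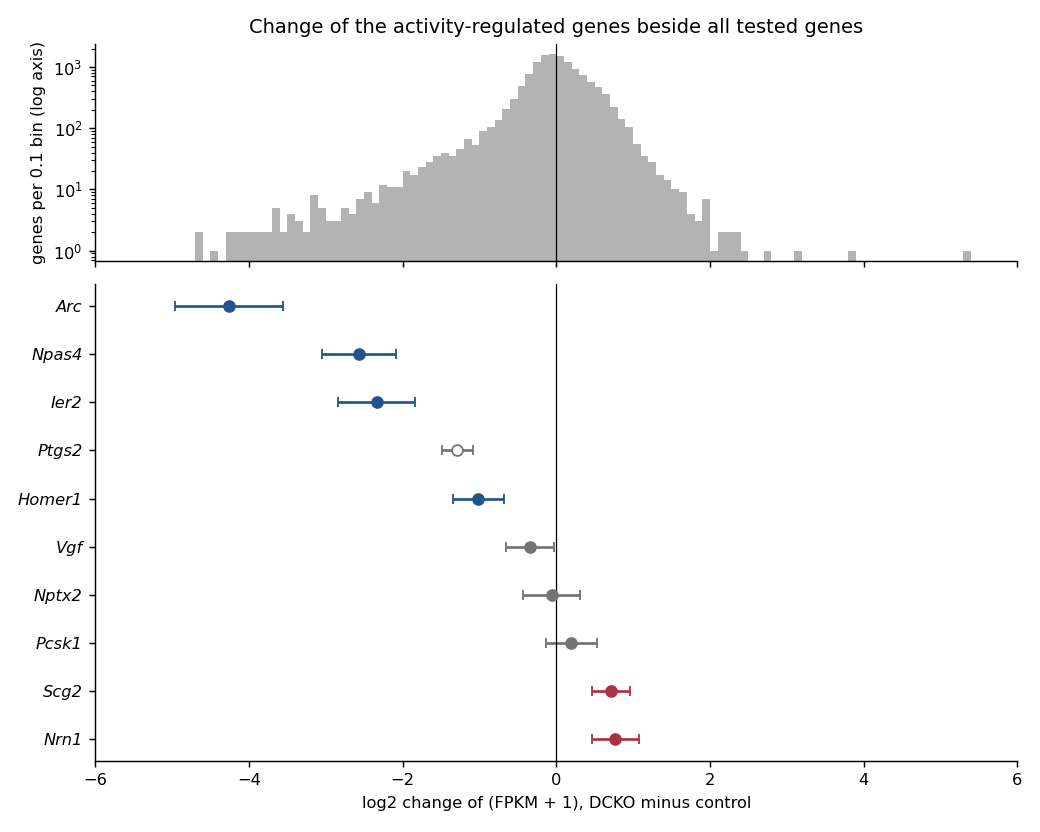
Upper panel, number of tested genes per bin of log2 change (log axis); lower panel, log2 change of (FPKM + 1), DCKO minus control, with its 95% confidence interval, for each activity-regulated gene. Blue marks genes called lower, red genes called higher and grey genes that did not pass; the open point is Ptgs2 from the fit with no filter. The changes run from -4.26 for Arc to 0.77 for Nrn1.

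The order of the genes by level differed between the genotypes. In the controls Scg2 and Arc were the highest, with overlapping libraries (95.2 and 108 FPKM against 109.9 and 86.2). Nrn1, Ier2, Nptx2 and Vgf followed, at control means between 35.9 and 39.9 FPKM that did not separate beyond their spread. Npas4, Homer1, Pcsk1 and Ptgs2 came below them, and neighbours among these 4 did not overlap. In DCKO the order was Scg2, Nrn1, Nptx2, Vgf, Pcsk1, Ier2, Homer1, Arc, Npas4 and Ptgs2, and Arc (2.96 and 5.65 FPKM) stood below Homer1 (6.17 and 6.50 FPKM). Only Ptgs2 and, with an overlapping range, Npas4 (2.55 and 3.36 FPKM) were below Arc there. These levels are per transcript length, so they can be set against each other.

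Between the control libraries, 1 against 1, the early members and most later members differed in opposite directions. Arc, Npas4 and Ier2, all 3 early genes, were higher in control library 1, as was Ptgs2. The other later effectors, 6 of 7, were higher in control library 2, with ratios from 1.09 for Nrn1 to 1.29 for Pcsk1. Olfactory sensory neuron markers were also higher in control 1, at 196 FPKM summed against 49.1 in control 2. Their part in the split of the members was not tested. Early genes outside the members went both ways. Fos (87.7 against 66.5 FPKM) and Junb (131 against 107) were higher in control 1. Fosb (31.0 against 28.9 FPKM) and Nr4a1 (139 against 122) were higher in control 2. Without control replicate 1, the 6 members called in the full fit kept their directions. Their log2 changes were -4.09 for Arc, -2.35 for Npas4, -2.06 for Ier2, -1.17 for Homer1, 0.62 for Scg2 and 0.71 for Nrn1. Without DCKO replicate 1, which leaves 3 libraries that share the Y-linked signal, the changes were -3.89 for Arc, -2.42 for Npas4, -2.36 for Ier2, -0.98 for Homer1, 0.64 for Scg2 and 0.92 for Nrn1. The limma adjusted p of these 6 then lay between 0.00886 and 0.0423.

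Other activity-regulated genes mostly fell or did not pass. Of 46 further genes, all tested, 26 fell, 1 rose and 19 did not pass. Their median log2 change was -0.73, beside -0.02 over all tested genes. This list and the other lists below were made with earlier results of these data known, so their counts are no independent support. Over all tested genes 14.3% fell and 13.0% rose. Egr2, Fosb and Nr4a2 had DCKO means under 1 FPKM and passed the filter through their control level, so they could only be called lower. The transcription factor genes Fosb (control 28.9 and 31.0 FPKM, DCKO 0.533 and 0.869, log2 change -4.19) and Egr1 (158 and 142 against 8.09 and 11.3, -3.83) had the largest decreases on the log2(FPKM + 1) scale. Egr4 (-3.78) and the orphan nuclear receptor Nr4a1 (-3.69) came next, and the limma adjusted p of these 4 genes lay between 0.000369 and 0.000808. By the ratio of mean FPKM the order differed: Egr2 was 44.7-fold lower (4.82 and 5.18 FPKM against 0.134 and 0.0898), Fosb 42.7-fold, Egr4 17.6-fold, Nr4a2 17.0-fold, Egr1 15.5-fold and Nr4a1 14.3-fold. Rgs2, a regulator of G protein signalling, was the gene that rose (9.52 and 9.74 FPKM against 16.7 and 19.5, log2 change 0.84, limma adjusted p = 0.00706). Bdnf, the neurotrophin whose gene is a classical activity target, was low in every library, at 1.11 and 1.42 FPKM in control bulbs against 0.946 and 1.45 in DCKO bulbs (limma adjusted p = 0.85). Bdnf, Egr2 and Nr4a2 are named outside the rule for named genes, after their values were seen. Activity-regulated transcripts thus held large decreases, increases and differences that did not pass, inside the 10 members and outside them.

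**Figure D3:**
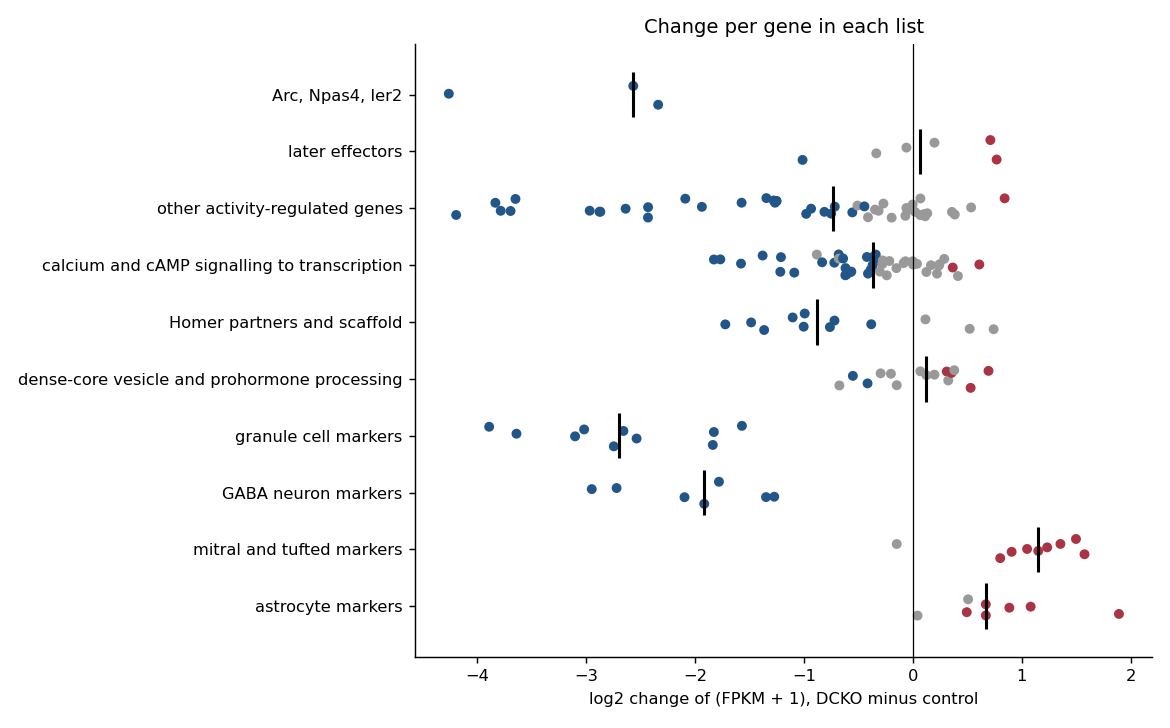
Log2 change of (FPKM + 1), DCKO minus control, of each tested gene (points, spread vertically at random) in each list, with the list's median as a bar. Blue points fell, red points rose and grey points did not pass. All points for Arc, Npas4 and Ier2 lie at or below -2.34, while the later effectors lie on both sides of 0 around a median of 0.07.

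Genes that carry calcium and cAMP signals to the nucleus tended to be lower. Of 45 listed, all tested, 23 fell, 2 rose and 20 did not pass, with a median log2 change of -0.37. Over all tested genes 14.3% fell and 13.0% rose. The calmodulin kinase genes Camk4 (mean 9.95 against 2.07 FPKM, log2 change -1.83) and Camk2a (mean 102 against 29.3 FPKM, -1.77) fell. So did the calcium channel subunit Cacna1c (-1.58) and the MAP kinase kinase Map2k1 (-1.38), with limma adjusted p for the 4 of 0.000959 to 0.00224. Camk4 is also listed among the granule cell markers. The count that fell was 15 without control replicate 1, 14 without control replicate 2 and 15 with no filter. Those that rose were Arnt2, which encodes a dimer partner of Npas4 (mean 25.8 against 33.5 FPKM, log2 change 0.37, limma adjusted p = 0.0305), and Nfatc4 (0.61, adjusted p = 0.0424). Arnt2 lost its call without control replicate 1 (adjusted p = 0.137), control replicate 2 (0.0768) or DCKO replicate 1 (0.074), and Nfatc4 lost it without any 1 of the 4 libraries (0.0531 to 0.131).

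Partners of Homer1 at the synapse were lower as well. Of 12 listed Homer genes, partners and scaffold genes, 9 fell and 3 did not pass (median log2 change -0.88). Among all tested genes 14.3% fell. The glutamate receptor Grm5 (14.5 and 14.1 FPKM against 3.28 and 4.01, log2 change -1.72), Shank1 (-1.48), the paralog Homer2 (14.6 and 13.0 against 4.08 and 5.48, -1.36) and the PSD-95 gene Dlg4 (-1.10) fell, with limma adjusted p of 0.0013 to 0.00597. Homer3, the other paralog, had control levels of 7.10 and 9.23 FPKM against 11.5 and 17.5 in the mutants (log2 difference 0.74, adjusted p = 0.0653). Without control replicate 2 or DCKO replicate 1 Homer3 passed as higher (adjusted p = 0.0458 and 0.042).

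Among 15 tested genes of dense-core vesicles and prohormone processing, the machinery that handles Scg2 and Vgf, 2 fell and 4 rose (median log2 change 0.12), where over all tested genes 14.3% fell and 13.0% rose. The carboxypeptidase Cpe, which trims cleaved peptides, rose from 396 and 431 FPKM to 744 and 601 FPKM (log2 change 0.69, limma adjusted p = 0.0204). The amidating enzyme Pam (0.53), chromogranin A, Chga (0.36), and Scg3 (0.31) rose too, and the convertases Pcsk2 (-0.55) and Furin (-0.42) fell. None of these 6 calls held without control replicate 1 (adjusted p 0.0538 to 0.243) or without control replicate 2 (0.0512 to 0.138). Chgb, another granin, had 82.7 and 99.4 FPKM against 116 and 84.6, with overlapping groups, and did not pass.

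Close relatives of the other members went both ways. Nptx1, the paralog of Nptx2, rose from 10.9 and 13.1 FPKM to 23.5 and 22.5 FPKM (log2 change 0.89, limma adjusted p = 0.00745), while their membrane-bound receptor Nptxr did not pass (-0.13). Npas2, a circadian relative of Npas4, fell from 2.45 and 2.52 to 1.03 and 0.837 FPKM (log2 change -0.85, limma adjusted p = 0.0136). With a DCKO mean of 0.933 FPKM, Npas2 passed the filter through its control level and could only be called lower. Ier3ip1, which encodes a small protein named for binding Ier3, rose from 17.2 and 18.1 to 21.3 and 23.5 FPKM (log2 change 0.32, limma adjusted p = 0.0414). It did not pass without control replicate 1 (adjusted p = 0.183), control replicate 2 (0.123) or DCKO replicate 2 (0.0802). Of 8 prostaglandin synthesis genes, 3 rose, beside 13.0% of all tested genes. The constitutive cyclooxygenase Ptgs1 rose from 1.72 and 2.15 FPKM to 2.99 and 3.43 FPKM (log2 change 0.52, limma adjusted p = 0.0449), opposite in direction to Ptgs2. Ptges (0.52) and the meningeal and oligodendroglial synthase Ptgds (1.23) rose as well. The call on Ptgs1 was lost without any 1 of the 4 libraries (adjusted p 0.0661 to 0.162), as was that on Ptges (0.0578 to 0.0941), and that on Ptgds was lost in all but the fit without control replicate 1 (up to 0.0979).

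Markers of the bulb's cell types changed in both directions. The counts below stand beside 14.3% of all tested genes that fell and 13.0% that rose. The marker lists too were chosen with earlier results of these data known, so their counts are no independent support. All 10 granule cell markers fell, and their summed level went from 1100.2 and 1174 FPKM to 158 and 178, 6.76-fold lower. All 7 GABA neuron markers fell, and their sum was 3.87-fold lower (689 and 643 FPKM against 150.1 and 194), with 4 of the 7 called when no filter was used. Arc, Npas4 and Ier2 fell 22.8-fold, 7.64-fold and 5.77-fold in mean FPKM, and their sum, which Arc dominates, was 11.4-fold lower. By median log2 change these 3 genes (-2.57) and the granule cell markers (-2.70) stood in the opposite order. Of 9 tested mitral and tufted cell markers 8 rose, with a sum 1.78-fold higher (932 and 997 FPKM against 1852 and 1583). Astrocyte markers rose for 6 of 8, with a sum 1.83-fold higher, and microglia markers for 5 of 8, 1.49-fold higher. The microglia count was 3 without control replicate 1 and 2 without control replicate 2. Periglomerular markers fell for 3 of 6. Of these, Ddc lost its call with no filter (limma adjusted p = 0.0803) and with median centring (0.0576). Calb2, the highest of that list, did not pass (mean 293 FPKM in controls against 296 in DCKO). Of 8 endothelial and mural markers 2 rose, a count of 5 with median centring and fewer when a control was left out. Beside the mitral and tufted cell sum stand the rises of Scg2 (1.64-fold) and Nrn1 (1.73-fold). The part of cell composition in any member's change was not tested.

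**Figure D4:**
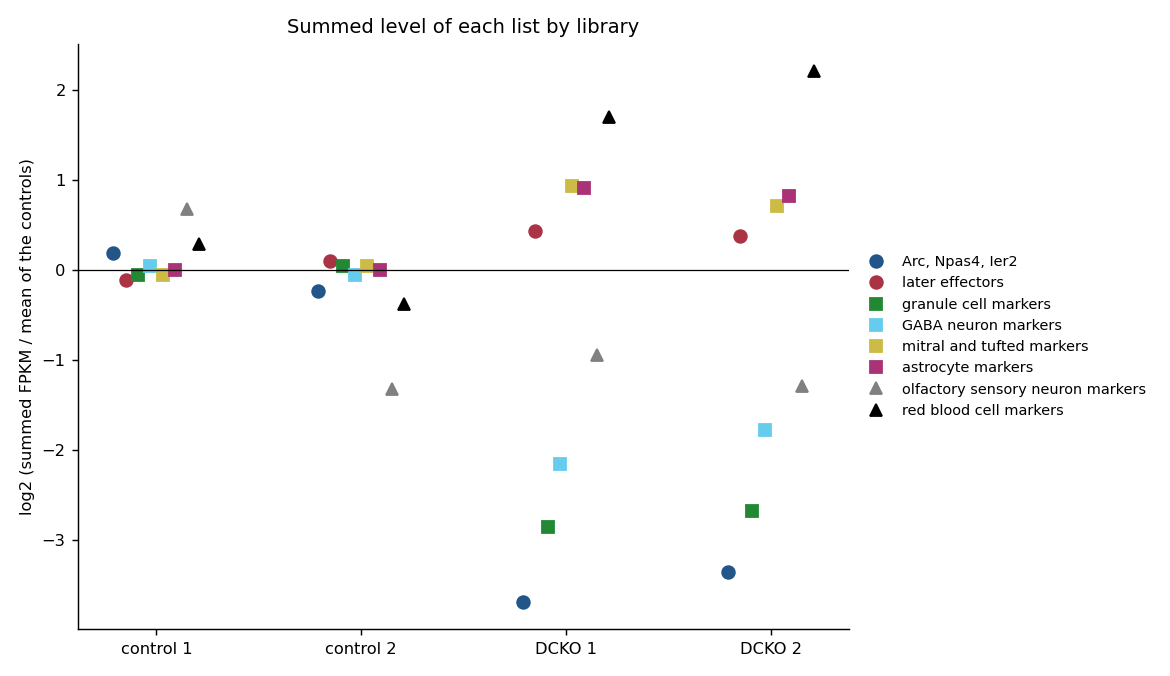
Log2 ratio of each list's summed FPKM to its mean in the controls (vertical axis) in each library (horizontal axis); circles are activity-regulated genes, squares neuron and astrocyte markers, and triangles olfactory sensory neuron and red blood cell markers. The sum of Arc, Npas4 and Ier2 is the lowest point in both DCKO libraries, with Arc its largest part in the controls. The sum of the later effectors lies above 0 in both DCKO libraries. Scg2 is its largest part there, at a mean of 167 of 315 FPKM. Of the later effectors only Scg2 and Nrn1 were called higher, and Homer1 was called lower.

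Blood and stress genes differed between libraries too. The shares over all tested genes were 14.3% lower and 13.0% higher. Red blood cell genes summed to 828 and 522 FPKM in control bulbs and 2203 and 3145 in mutant bulbs, 3.96-fold higher, with 3 of 5 tested genes called higher, and 1 with no filter. Among 6 tested heat shock genes, the 2 that fell were Hspa1b and Hspa8 (0 without control replicate 2), and the summed level was 1157 and 1180 FPKM in control libraries against 916 and 915 in mutant libraries. Oligodendrocyte genes varied within DCKO (942 and 521 FPKM) and 0 of 8 passed in limma, with 1 at an unadjusted p under 0.05. Of the olfactory sensory neuron markers 0 of 5 tested passed in limma, with 1 at an unadjusted p under 0.05. The sum of the list was 196 FPKM in control library 1, 49.1 in control library 2, and 63.6 and 50.1 in DCKO. Cnga2 passed the filter only through control library 1 (10.2 FPKM, against 0.303 in control library 2 and 0.206 and 0.212 in DCKO). Without control replicate 2, control library 1 is the only control, so that fit rests on its high level. The part of these lists in the members' changes was not tested.

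The genes nearest to Arc and Npas4 in pattern were sought among 9561 tested genes with a control mean of at least 5 FPKM, by the root mean square difference of log2(FPKM + 1), relative to the control mean, over the 4 libraries. For Arc they were Fosb (0.23), the metabotropic glutamate receptor Grm4 (0.26; control 27.5 and 27.1 FPKM, DCKO 0.42 and 0.504) and Th, the enzyme that starts dopamine synthesis (0.27; 65.4 and 75.8 against 1.91 and 2.72). For Npas4 they were Tshz1 (0.18), a zinc finger homeobox gene of granule cells, Gad1 (0.19), which makes GABA, and the muscarinic receptor Chrm2 (0.19; 9.78 and 10.1 FPKM against 0.607 and 0.818). The added 1 compresses DCKO levels under 1 FPKM, so nearness on this scale is not an equal fold: Grm4 was 59.1-fold lower in mean FPKM, Fosb 42.7-fold and Th 30.5-fold, against 22.8-fold for Arc. Chrm2 was 13.9-fold lower, against 7.64-fold for Npas4. Of these genes, Fosb is on the list of activity-regulated genes, and Th, Tshz1 and Gad1 are on the lists of periglomerular, granule cell and GABA neuron markers.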

How the data were processed

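The authors deposited 1 table of 4 libraries. TopHat and Cufflinks 2.1.1 were used on GRCm38.p4, per the submitters' processing notes (annotation and strandedness: not given in the sources used here). Per the file headers, the authors computed FPKM values. The deposited columns headed count hold a scaled signal, since 98.7% to 98.9% of the positive values are whole multiples, to within 0.05, of 1 step per library. Dividing by that step gave the fragments quoted, 14911123 to 16116688 per library.

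The comparison, DCKO minus control, was fitted on log2(FPKM + 1) by limma 3.58.1 (R 4.3.3; trended prior variance) for genes whose mean reached 1 FPKM. The test was two-sided, and genes were called at a Benjamini-Hochberg adjusted p below 0.05. The fit was tested on simulated data. No count model was the main test. A pseudocount of 1 understates changes of low genes. Columns were mapped by the codes in the sample descriptions, with 0 unmapped. Coordinates are from GENCODE M21. All members are named; from other lists up to 4 called genes of largest change, any family relative, and singled-out genes as stated. The members and lists were chosen with earlier results of these data known. Alternatives covered the pseudocount, filter, scaling, trend, replicate block, scaled counts, and each library left out; the fit on recovered fragments (limma's voom), and the fits for Ptgs2 with no filter, were added after seeing the data.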

Additional observations from a re-analysis of the deposited data

How the results depend on the processing

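Arc, Npas4, Ier2 and Homer1 kept their direction and their call under all 14 alternatives, with log2 changes of -4.63 to -3.89, -2.89 to -2.35, -2.62 to -2.06 and -1.17 to -0.85. Scg2 and Nrn1 kept theirs in 13 of 14, and with no filter 0 members were called higher by limma, though 2 had an unadjusted p under 0.05. No filter also gave 1045 genes lower and 732 higher of all genes, 16 of the other activity-regulated genes lower, and a member median of -0.67, which then includes Ptgs2. The member median was -0.28 with median centring, -0.28 with quantile normalization, -0.23 on scaled counts and -0.19 with voom on recovered fragments. One further activity-regulated gene was called higher, making 2, with median centring, no variance trend, the replicate block, scaled counts and voom. Median centring also turned the split of all genes from 1926 lower and 1747 higher to 1580 lower and 2225 higher. Leaving out 1 library gave 1030 to 1875 genes lower, 806 to 1384 higher and a member median of -0.50 to -0.17. Nptx2, which was not called, changed sign with voom (0.0055), without control replicate 2 (0.0234) and without DCKO replicate 2, and ranged from -0.24 to 0.13 with 1 library left out. With the replicate number as a block, 4 members were lower and 2 higher, and all genes gave 1418 and 1312. Deviations of same-numbered libraries correlated at -0.0211 across genes. With 2 libraries per genotype, this value cannot tell whether same-numbered libraries share a litter or a batch. Pcsk1 was called in 0 of 14 alternatives, and the cause of these differences was not tested. A filter at a mean of 5 FPKM cannot hold Ptgs2, whose 9 and 13 fragments limit its precision.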
